A study of Mus musculus with 12 samples.

Results

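The genes described here belong to the synthesis of sterols and fatty acids, including those of the sterol regulatory element-binding proteins (SREBPs) and of their regulators. They were chosen by name, and all 32 were found among the 14533 genes of the count table: 5 regulators, 19 genes of the sterol arm and 8 genes of the fatty acid arm.

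RNA was sequenced from epidermis scraped from the non-lesional dorsal skin of 12 untreated C57BL/6 mice, with 1 library per mouse. Both groups carried floxed Pparg on both chromosomes. The 6 WT mice lacked Cre (Cre-/-), and the 6 Pparg-/-epi mice carried Cre driven by the keratin 14 promoter (Cre+/-), which is active in basal keratinocytes and in the hair follicle and sebaceous gland cells that arise from them. Scraping went down to the superficial dermis, so cells in which this Cre is not active were sampled as well. WT mice were 3 females and 3 males aged 8 to 13 weeks, and Pparg-/-epi mice were 4 females and 2 males aged 8 to 13 weeks, with ages as the sample labels give them. The RNA integrity number was 6.88 ± 1.03 in WT and 7.55 ± 1.07 in Pparg-/-epi mice (mean ± SD, n = 6 each). Total counts per library ran from 10120840 to 16947632 in WT and from 11272135 to 18851255 in Pparg-/-epi mice. The comparison asks which of these lipid synthesis genes differ in RNA level when the epidermis lacks Pparg, which encodes the lipid-sensing nuclear receptor PPARγ.

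SREBPs are transcription factors held in the endoplasmic reticulum membrane by SCAP and the INSIG proteins while sterols are plentiful. When sterols fall, SCAP escorts them to the Golgi, where they are cut and released to the nucleus. SREBP-2 acts mainly on cholesterol synthesis and SREBP-1 mainly on fatty acid synthesis, and they are known to work with the factors NF-Y and Sp1 at promoters. In skin, keratinocytes make cholesterol and fatty acids for the lipid layers of the permeability barrier, and sebocytes make fatty acids for wax esters and triglycerides.

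Promoters were searched because the members share a known set of regulators. Of the 32 members, 28 had an entry in the RefSeq promoter table (build GRCm38.p6), with 37 start sites between them, and the 250 bases before each start were searched on both strands. Fdps, Fdft1, Sqle and Stard4 had none. A gene was counted when any of its windows held the motif. The NF-Y box (CCAAT) was found in 14 of 15 sterol arm genes, 4 of 5 regulators and 5 of 8 fatty acid arm genes, against 39.8% of 10993 genes of the count table and 37.5% of all 27025 genes with a promoter entry. At least 2 NF-Y boxes in the same window were present in 9 of 15 sterol arm genes, against 14.3% of the genes of the count table. The GC box (GGGCGG), which Sp1 is known to bind, was present in 14 of 15, 5 of 5 and 4 of 8 genes of the sterol arm, the regulators and the fatty acid arm, against 61.3% of the genes of the count table. The sterol regulatory element (TCACNCCA) was found in Hmgcs1, Msmo1 and Srebf2, and it is rare in general, at 4.11% of the genes of the count table. The E-box (CACGTG), which SREBPs can also bind, was found in Hsd17b7, Sc5d, Dhcr7, Insig1 and Scap, against 9.52%. No match overlapped a match of a different motif in the members' windows. A match is a string of letters and not a measured binding site. Sites with other letters or farther from the start were not searched for, so a member without a match may still have one.
The windows below are those of the 3 members with a sterol regulatory element, of Mvk, which has 5 NF-Y boxes, and of Fasn and Acacb from the fatty acid arm. Capitals mark the sterol regulatory element and the NF-Y box on either strand, and the last base is the one before the start.
Srebf2 (chr15:82147019-82147268, plus strand): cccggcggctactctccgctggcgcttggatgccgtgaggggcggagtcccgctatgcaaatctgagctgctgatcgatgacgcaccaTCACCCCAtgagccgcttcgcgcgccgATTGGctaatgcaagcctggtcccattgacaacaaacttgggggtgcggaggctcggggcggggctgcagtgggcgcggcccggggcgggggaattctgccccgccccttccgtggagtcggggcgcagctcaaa
Hmgcs1 (chr13:119690101-119690350, plus strand): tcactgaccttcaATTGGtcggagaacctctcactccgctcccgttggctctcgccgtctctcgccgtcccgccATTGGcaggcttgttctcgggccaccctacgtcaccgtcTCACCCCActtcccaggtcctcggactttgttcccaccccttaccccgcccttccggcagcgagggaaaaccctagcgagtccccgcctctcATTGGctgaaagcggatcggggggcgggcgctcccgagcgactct
Mvk (chr5:114444019-114444268, plus strand): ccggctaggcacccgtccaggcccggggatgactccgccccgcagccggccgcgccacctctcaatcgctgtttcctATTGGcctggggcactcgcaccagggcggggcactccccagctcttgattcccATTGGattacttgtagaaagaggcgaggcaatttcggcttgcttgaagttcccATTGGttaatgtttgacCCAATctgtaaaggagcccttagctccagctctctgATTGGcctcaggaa
Msmo1 (chr8:64733579-64733828, minus strand): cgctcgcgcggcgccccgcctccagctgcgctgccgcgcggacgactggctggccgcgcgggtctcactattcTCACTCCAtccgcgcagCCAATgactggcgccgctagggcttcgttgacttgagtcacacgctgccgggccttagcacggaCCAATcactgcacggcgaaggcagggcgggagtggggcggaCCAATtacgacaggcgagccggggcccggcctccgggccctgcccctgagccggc
Fasn (chr11:120824548-120824797, minus strand): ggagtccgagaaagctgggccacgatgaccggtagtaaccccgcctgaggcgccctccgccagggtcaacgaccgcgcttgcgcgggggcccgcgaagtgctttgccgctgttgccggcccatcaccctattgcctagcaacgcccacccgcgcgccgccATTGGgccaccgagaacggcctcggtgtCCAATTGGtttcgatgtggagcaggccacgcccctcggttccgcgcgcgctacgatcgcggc
Acacb (chr5:114165268-114165517, plus strand): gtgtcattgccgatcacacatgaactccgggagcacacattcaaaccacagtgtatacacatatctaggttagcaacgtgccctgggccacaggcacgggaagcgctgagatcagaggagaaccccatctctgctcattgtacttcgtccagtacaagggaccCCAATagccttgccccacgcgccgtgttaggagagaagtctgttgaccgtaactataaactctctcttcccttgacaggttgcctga
In Msmo1 the sterol regulatory element starts 177 bases before the start site, and in Hmgcs1 137 bases and in Srebf2 162 bases before it. Each of the 3 windows also has at least 1 NF-Y box and at least 2 GC boxes. The Fasn window has 3 NF-Y box matches, and those at 62 and 59 bases before the start overlap each other on opposite strands. The Acacb window has 1, and neither window holds the other 3 motifs.

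**Figure D1:**
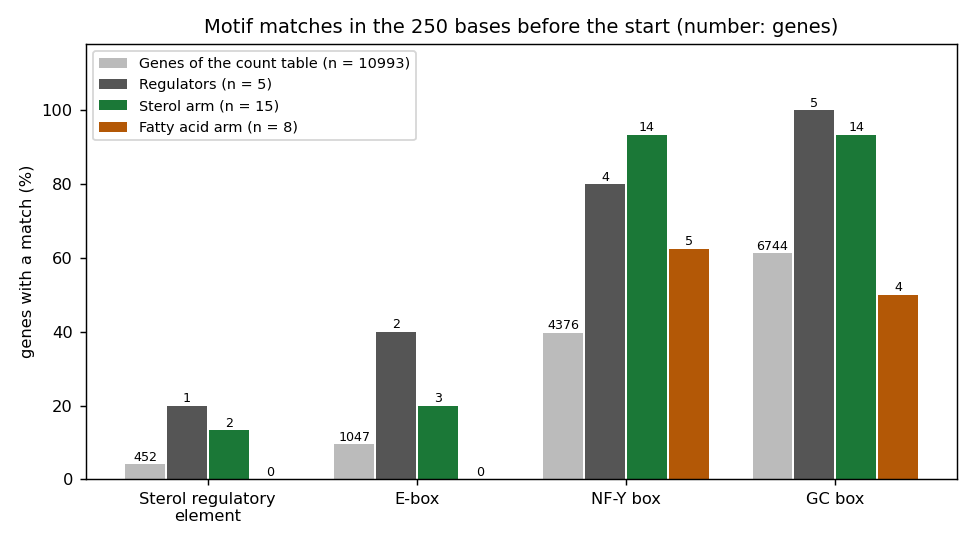
Percentage of genes with at least 1 match of each motif in the 250 bases before a start site, for genes of the count table and for each arm. Numbers above the bars are genes with a match, and the sterol arm has 14 of 15 for the NF-Y box and for the GC box.

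Before the members are compared, 1 library needs mention. On the first principal component of the 500 most variable genes, WT replicate 2 had a score of 22.7, within the 4.71 to 42.8 of Pparg-/-epi mice, and the scores of the other 5 WT mice ran from -43.4 to -26.1. Members whose call changes when it is left out are given with and without it. Mouse names that start with 29-226 belong to 4 of the 6 WT mice and to no Pparg-/-epi mouse. Leaving these 4 out keeps only WT replicates 1 and 2, so WT replicate 2 is then 1 of 2 WT mice. The mice named 29-226 had RNA integrity numbers of 5.9 to 7.1 and label ages of 12 to 13 weeks. WT replicates 1 and 2 had 7.4 and 8.6, at 8 and 9 weeks. What goes with this part of the name and the genotype cannot be told apart for the mice named 29-226. The start 29-222 is shared by WT replicate 2 and Pparg-/-epi replicate 10. Pparg-/-epi replicates 8 and 9 share the start 29-195, and replicates 11 and 12 share 29-225. Pparg, the targeted gene on chromosome 6, was counted 5 to 269 times per WT mouse and 16 to 107 times per Pparg-/-epi mouse (log2 fold change -0.10, standard error (SE) 0.71, adjusted p = 0.949). These counts are summed over the whole gene and do not tell the genotypes apart, and leaving out WT replicate 2 turned the value to 0.86 (adjusted p = 0.308). Keratinocyte markers were abundant in every library: Krt10 reached at least 7097 CPM (counts relative to library size, scaled with TMM factors) and Krt5 at least 3155 CPM. In bulk tissue, fewer cells of a type and less RNA per cell cannot be told apart.

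Levels of different members were compared only per kilobase of exon (RPKM, from the scaled CPM). In WT mice the median RPKM was highest for Msmo1 at 177, Hmgcs1 at 157 and Fdps at 123, followed by Me1 at 102. Thrsp was lowest at 0.538, below Acacb at 4.60 and Idi1 at 4.97. The median over the sterol arm was 31.8, over the regulators 22.7 and over the fatty acid arm 15.4, against 7.76 over all genes. Most members were above this all-gene median in these scrapings, and Thrsp was above 10.3% of genes.

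Between the groups, a gene was called altered if its log2 fold change was 0.6 or more in size with an adjusted p under 0.05 in edgeR's quasi-likelihood test over all 14533 genes. By this rule 10.3% of all genes were altered, 5.08% lower and 5.19% higher in Pparg-/-epi mice. Among the 32 members 6 were lower and 0 higher. The 6 were 1 of 5 regulators (Srebf1), 1 of 19 sterol arm genes (Msmo1) and 4 of 8 fatty acid arm genes (Acacb, Fasn, Me1 and Mid1ip1). With the likelihood ratio test and with DESeq2 no member was altered upward either. At an unadjusted p under 0.05, where 14.0% of all genes were higher and 15.4% lower, Scap and Ebp were higher and 12 members were lower. The median log2 fold change was -0.05 for the regulators, -0.22 for the sterol arm and -0.64 for the fatty acid arm, against -0.01 for all genes. The 6 WT mice and the 6 Pparg-/-epi mice did not overlap in 2 of the 32 members, Srebf1 and Msmo1, both lower, while this held for 7.90% of all genes, and for 3.95% in the lower direction.

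**Figure D2:**
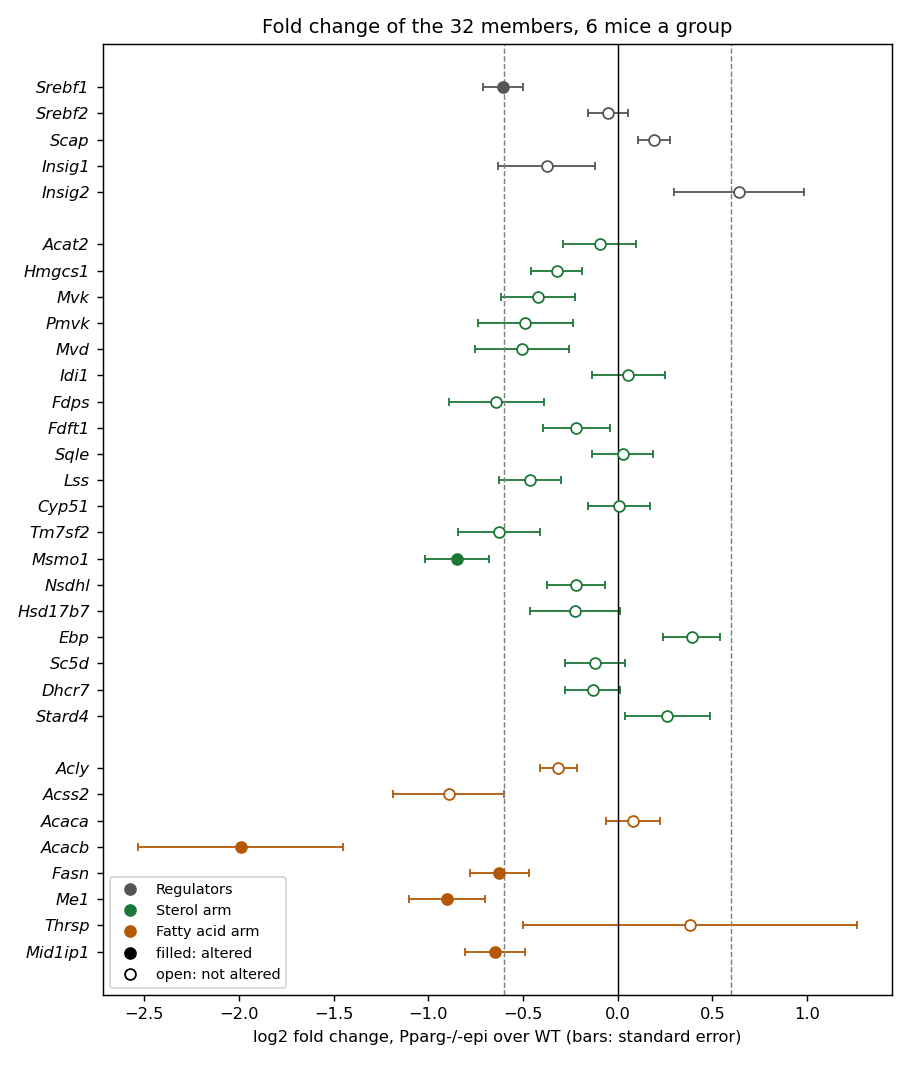
Log2 fold change of Pparg-/-epi over WT mice for each of the 32 members, with standard error bars and 6 mice a group. Filled points are altered, dashed lines mark 0.6 in size, and the points run from -1.99 for Acacb to 0.64 for Insig2.

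Srebf1, which encodes SREBP-1, lies on chromosome 11 (chr11:60199089-60220604, mm10) and fell in Pparg-/-epi mice. Its level was 88.1, 97.6 and 105 CPM (lowest, median, highest) in WT and 49.5, 66.5 and 74.0 CPM in Pparg-/-epi mice. Every Pparg-/-epi mouse was below every WT mouse, and replicates 8 and 12 were the lowest. The log2 fold change was -0.60 (SE 0.11, adjusted p = 0.00265), just past the size threshold. In 8 of the 22 alternative settings it was not altered, with values between -0.60 and -0.47; these include RIN as a covariate (-0.57, adjusted p = 0.00472) and female mice only (-0.47, adjusted p = 0.0775). Over all 22 its adjusted p ran from 3.59e-06 to 0.126, and it was below 0 in each.

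The other regulators were not altered. Srebf2, which encodes SREBP-2, was 124, 146 and 149.9 CPM in WT and 112, 134 and 178 CPM in Pparg-/-epi mice (log2 fold change -0.05, SE 0.11, adjusted p = 0.790), with 2 of 6 Pparg-/-epi mice below every WT mouse and 1 above every WT mouse. Scap, the escort protein, had a log2 fold change of 0.19 (SE 0.08, adjusted p = 0.148), with 4 of 6 Pparg-/-epi mice above every WT mouse. Insig1, which retains SCAP in the endoplasmic reticulum and is itself a known SREBP target, had 15.7 to 42.1 CPM in WT and 12.5 to 28.4 CPM in Pparg-/-epi mice (log2 fold change -0.38, SE 0.26, adjusted p = 0.360). Its value was -0.95 (adjusted p = 0.0781) without the WT mice named 29-226, -0.20 without WT replicate 1 and -0.13 in females only.

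Insig2, the second retention protein, was called in 1 setting and not with all mice. It was 46.99, 52.7 and 199.9 CPM in WT and 94.0, 128 and 155 CPM in Pparg-/-epi mice. The highest value of all 12 mice was that of WT replicate 2, and the remaining WT mice, at 81.3 CPM or less, were below every Pparg-/-epi mouse. With all mice the log2 fold change was 0.64 (SE 0.34, adjusted p = 0.240). Without WT replicate 2 it was 1.13 (adjusted p = 0.00110), the only setting of 22 in which Insig2 was altered. Without the WT mice named 29-226 it was -0.14 (adjusted p = 0.837), and WT replicate 2 is 1 of 2 WT mice in that setting.

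**Figure D3:**
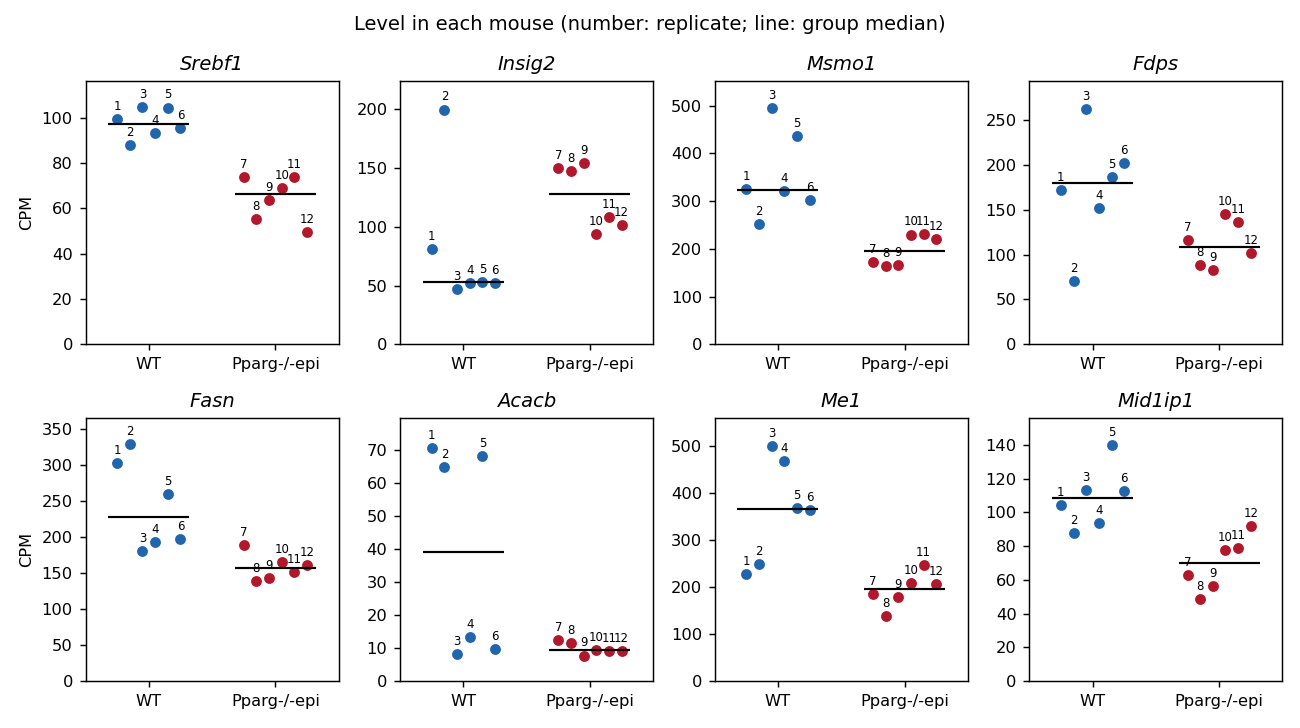
CPM in each mouse for 8 members, with the replicate number beside each point and the group median as a line. Srebf1 and Msmo1 do not overlap between the groups, WT replicate 2 stands at 199.9 CPM for Insig2, and WT replicates 1, 2 and 5 stand at 64.9 to 70.6 CPM for Acacb.

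In the sterol arm, Msmo1 was the altered gene. It encodes a methylsterol monooxygenase that starts the removal of the methyl groups at carbon 4, after Cyp51 has acted, and lies on chromosome 8 (chr8:64718145-64733578, mm10). Its level was 252, 323 and 494 CPM in WT and 164, 196 and 230.2 CPM in Pparg-/-epi mice. Every Pparg-/-epi mouse was below every WT mouse, with replicates 7, 8 and 9 lowest at 172 CPM or less and replicates 10, 11 and 12 at 221 CPM or more. The log2 fold change was -0.85 (SE 0.17, adjusted p = 0.00534). It was altered in 20 of the 22 alternatives and was lost among females alone (-0.68, adjusted p = 0.0595) and against the 2 WT mice not named 29-226 (-0.54, adjusted p = 0.165).

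None of the enzymes that act beside Msmo1 passed the test with all mice, and their difference from Msmo1 was not tested. Nsdhl and Hsd17b7, which act with Msmo1 in the same demethylation, had log2 fold changes of -0.22 (adjusted p = 0.364) and -0.23 (adjusted p = 0.576). In females only they were 0.04 and 0.33, and without WT replicate 1 Hsd17b7 was -0.03 (adjusted p = 0.934). Cyp51, which removes the first methyl group, was 151, 249 and 311 CPM in WT and 210.4, 242 and 293 CPM in Pparg-/-epi mice, for a log2 fold change of 0.01 (SE 0.16, adjusted p = 0.989). The Pparg-/-epi mice lay within the range of the WT mice, whose lowest value was that of replicate 2. Without the WT mice named 29-226 Cyp51 was at 0.28 (adjusted p = 0.511). Tm7sf2, a sterol reductase, had a log2 fold change of -0.63 (SE 0.22, adjusted p = 0.0718), past the size threshold but not the adjusted p. It was altered in 5 of the 22 alternatives, among them DESeq2 and total counts in place of TMM factors, and was -0.37 (adjusted p = 0.579) without the WT mice named 29-226.

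None of the genes for the steps from acetyl-CoA to squalene passed the test with all mice. Hmgcs1, which makes HMG-CoA, was 369.7, 563 and 645 CPM in WT and 357, 463 and 479.6 CPM in Pparg-/-epi mice. Of the WT mice only replicate 2 was within the range of the Pparg-/-epi mice, and the log2 fold change was -0.32 (SE 0.14, adjusted p = 0.132), or -0.17 (adjusted p = 0.704) without the WT mice named 29-226. The kinases Mvk and Pmvk and the decarboxylase Mvd, which turn mevalonate into isopentenyl diphosphate, had log2 fold changes of -0.42, -0.49 and -0.50 (adjusted p between 0.177 and 0.220). In that order they were -0.25, -0.18 and -0.38 with RIN as a covariate, -0.07, 0.08 and -0.42 without the WT mice named 29-226, and -0.13, -0.39 and -0.12 in females only.
Fdps, which joins these units into farnesyl diphosphate, was 71.0, 179.5 and 262 CPM in WT and 83.2, 109 and 145 CPM in Pparg-/-epi mice. The lowest of all 12 values was that of WT replicate 2, and the other 5 WT mice were above every Pparg-/-epi mouse. Its log2 fold change was -0.64 (SE 0.25, adjusted p = 0.106), or -0.36 in the fit with RIN (adjusted p = 0.306). Without the WT mice named 29-226, which leaves WT replicate 2 as 1 of 2 WT mice, it was -0.11 (adjusted p = 0.881). In the GENCODE annotation 76.9% of the counted Fdps exon bases also lie in exons of Gm43738 on the same strand. The paper names refGene as its annotation, and whether this overlap affected the Fdps counts was not tested. Fdft1 (squalene synthase) had a log2 value of -0.22 (adjusted p = 0.453), or -0.06 in the fit with RIN, and Idi1 (isopentenyl diphosphate isomerase) 0.06 (adjusted p = 0.881). Acat2, the thiolase at the entry, had -0.10 (adjusted p = 0.793), and 33.9% of its sequence, cut into 75-base pieces, is found in transcripts of another gene, mainly Acat3.

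None of the remaining sterol arm genes passed the test with all mice. Sqle, which makes squalene epoxide, was 102, 163 and 221 CPM in WT and 133, 167 and 190.2 CPM in Pparg-/-epi mice, for a log2 fold change of 0.03 (SE 0.16, adjusted p = 0.937). Without the WT mice named 29-226 Sqle was at 0.38 (adjusted p = 0.347). Lss, which closes the ring to lanosterol, had a log2 fold change of -0.46 (SE 0.16, adjusted p = 0.0719), with all 6 Pparg-/-epi mice below the WT median, and -0.19 (adjusted p = 0.547) in females only. Ebp, the sterol isomerase, was 28.1, 42.5 and 57.1 CPM in WT and 51.5, 56.2 and 65.5 CPM in Pparg-/-epi mice. All 6 Pparg-/-epi mice were above the WT median of Ebp and 3 were above every WT mouse, with a log2 fold change of 0.39 (SE 0.15, adjusted p = 0.100).
Sc5d and Dhcr7, which carry out late reactions of the pathway, had log2 fold changes of -0.12 and -0.13 (adjusted p = 0.673 and 0.598). Stard4, a cytosolic cholesterol carrier, stood at 0.26 on that scale (adjusted p = 0.487), or at 0.05 in the fit with RIN. Of the 19 sterol arm genes 14 were below 0, or 73.7%, against 51.5% of all genes. WT replicate 2 had the lowest WT value in 15 of the 19 genes, and WT replicate 3 the highest in 14. How often this held over all genes was not counted.

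In the fatty acid arm 4 of 8 genes passed the test, and the arms were not tested against each other. Fasn, the fatty acid synthase (chr11:120805958-120824547, mm10), was 180.5, 228 and 329 CPM in WT and 138, 157 and 189 CPM in Pparg-/-epi mice. In 5 of 6 Pparg-/-epi mice Fasn was below every WT mouse, and WT replicates 1, 2 and 5 were the 3 highest. Its log2 fold change was -0.62 (SE 0.16, adjusted p = 0.0176). It was not altered without WT replicate 1 (-0.57, adjusted p = 0.0324), without WT replicate 2 (-0.53, adjusted p = 0.0162), with age as a covariate (-0.58, adjusted p = 0.00961) or in female mice only (-0.62, adjusted p = 0.129). Without the WT mice named 29-226 it was -0.98 (adjusted p = 0.00610), and over the 22 alternatives its adjusted p ran from 0.00155 to 0.129.

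Acetyl-CoA carboxylase, which makes malonyl-CoA, is encoded by Acacb and Acaca, which were not tested against each other. Acacb, whose product sits at the mitochondrial membrane, is on chromosome 5 (chr5:114165518-114250758, mm10). In WT mice 1 to 6 it stood at 70.6, 64.9, 8.10, 13.2, 68.0 and 9.69 CPM, and in Pparg-/-epi mice 7 to 12 at 12.4, 11.4, 7.69, 9.48, 9.04 and 9.02 CPM. WT replicates 1, 2 and 5 were high, while WT replicates 3, 4 and 6 lay among or beside the Pparg-/-epi mice. The log2 fold change was -1.99 (SE 0.54, adjusted p = 0.0260). It was not altered without WT replicate 5 (-1.76, adjusted p = 0.0562) or without Pparg-/-epi replicate 9, 11 or 12 (-1.95, -1.97 and -1.97; adjusted p = 0.0590, 0.0526 and 0.0501), nor in female mice only (-1.52, adjusted p = 0.186), and over the 22 alternatives its adjusted p ran from 7.50e-05 to 0.186. Acaca, the cytosolic form, was 57.2, 70.7 and 106 CPM in WT and 62.7, 79.2 and 93.3 CPM in Pparg-/-epi mice, for a log2 fold change of 0.08 (SE 0.14, adjusted p = 0.764). For Acaca 26.8% of the 75-base pieces are found in transcripts of another gene, mainly Gm5182.

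Me1, the malic enzyme that supplies NADPH for fatty acid synthesis (chr9:86581363-86695914, mm10), was 228, 366 and 501 CPM in WT and 139, 196 and 247 CPM in Pparg-/-epi mice. In 5 of 6 Pparg-/-epi mice Me1 was below every WT mouse. Here WT replicates 1 and 2 were the lowest of their group, at 228 and 249 CPM, unlike Fasn and Acacb, where they were among the highest. The log2 fold change was -0.90 (SE 0.20, adjusted p = 0.0102). It was -0.28 (adjusted p = 0.458) when the 4 WT mice named 29-226 were left out, which leaves those 2 WT mice, and -0.95 (adjusted p = 0.0811) in females alone.
Mid1ip1, which is known to stimulate acetyl-CoA carboxylase (chrX:10717365-10719702, mm10), was 87.6, 108 and 140.0 CPM in WT and 48.7, 70.2 and 92.0 CPM in Pparg-/-epi mice. Its fold change on the log2 scale was -0.65 (SE 0.16, adjusted p = 0.0164), with 5 of 6 Pparg-/-epi mice below every WT mouse. It was not altered in 6 of the 22 alternatives, including RIN as a covariate (-0.51, adjusted p = 0.0171), and its adjusted p ran from 0.00157 to 0.311 over all 22. Exons of Gm14493 on the opposite strand cover 26.4% of its exon bases.

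The other 4 members of the arm were not altered with all mice. Acly, which makes acetyl-CoA from citrate, had 221 to 303 CPM in WT and 184 to 245 CPM in Pparg-/-epi mice, with 4 of 6 Pparg-/-epi mice below every WT mouse. Its log2 fold change of -0.31 (SE 0.10, adjusted p = 0.0489) passed the adjusted p but not the size threshold, and in 17 of the 22 alternatives, the likelihood ratio test among them (adjusted p = 0.0646), it passed neither. Acss2, which makes acetyl-CoA from acetate, was 11.4, 20.1 and 32.3 CPM in WT and 7.32, 11.6 and 13.9 CPM in Pparg-/-epi mice. Its fold change on the log2 scale was -0.89 (SE 0.29, adjusted p = 0.0571), WT replicates 1, 2 and 5 were again the highest, and the likelihood ratio test and DESeq2 called it altered. It was -1.43 (adjusted p = 0.0168) without the WT mice named 29-226 and -0.49 (adjusted p = 0.451) in females only. Thrsp, a relative of Mid1ip1, was at 4.66 CPM or less in WT mice and at 6.06 CPM or less in Pparg-/-epi mice. It had 0 counts in WT replicate 3, which allows up to 0.3196 CPM (3 counts, counting error only), and its log2 fold change was 0.38 (SE 0.88, adjusted p = 0.821), or between -0.21 and 0.96 with 1 mouse left out.

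Leaving out WT replicate 2 shifted the arms in different ways. Without it 15.5% of all genes were altered and 6.51% were altered and lower. In the sterol arm 4 of 19 genes were then lower, with Pmvk (-0.64, adjusted p = 0.0441), Fdps (-0.82, adjusted p = 0.00595) and Tm7sf2 (-0.72, adjusted p = 0.0331) joining Msmo1 (-0.95, adjusted p = 0.00136). The median of the sterol arm moved from -0.22 to -0.35. In the fatty acid arm 3 of 8 were lower, since Fasn dropped just under the size threshold, and the median was -0.63 against -0.64 with all mice. Without the WT mice named 29-226 the medians were -0.11 for the sterol arm and -0.38 for the fatty acid arm, and in females only they were -0.06 and -0.56. Hmgcs1 (-0.43, adjusted p = 0.0118), Mvk (-0.55, adjusted p = 0.0327) and Lss (-0.57, adjusted p = 0.0144) passed the adjusted p without this mouse but not the size threshold.

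**Figure D4:**
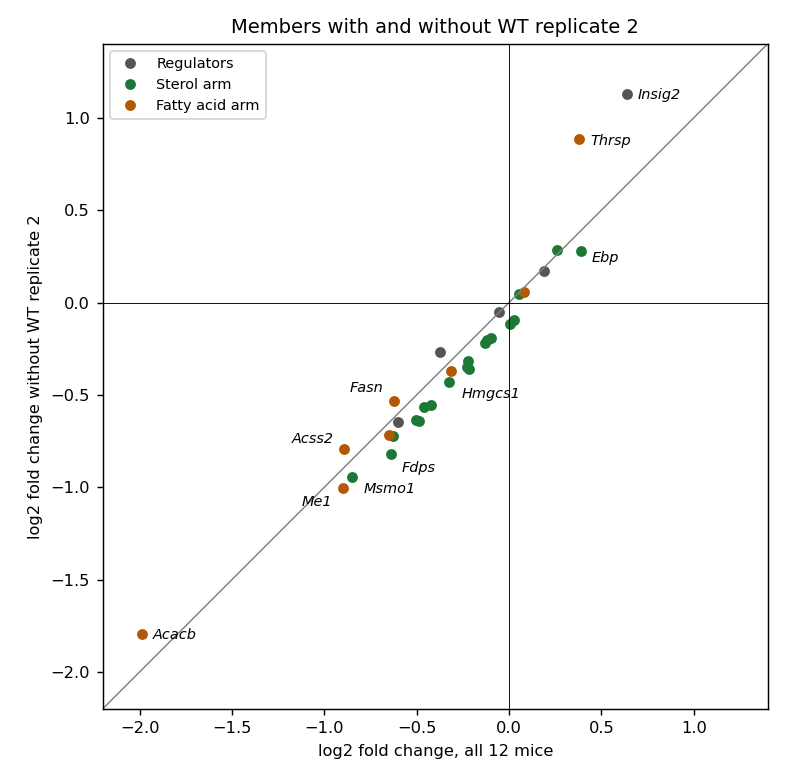
Log2 fold change of the 32 members with all 12 mice (horizontal) and without WT replicate 2 (vertical), 1 point a gene; the diagonal marks equal values. Sterol arm genes lie mostly below the diagonal (Fdps -0.64 and -0.82), Fasn and Acacb above it, and Insig2 moves from 0.64 to 1.13.

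Summed over the arm, the fatty acid genes stood at 1147, 1056, 1142, 1115, 1191 and 1018 CPM in WT mice 1 to 6 and at 802, 631, 695, 775, 766 and 729.5 CPM in Pparg-/-epi mice 7 to 12. The groups did not overlap in this sum, and the Pparg-/-epi median was 66.3% of the WT median. The sterol arm summed to 2507, 1545, 3077, 2301, 2545 and 2304 CPM in WT and to 2072, 1618, 1692, 2167, 2206 and 1910.5 CPM in Pparg-/-epi mice, with WT replicate 2 the lowest of all 12 mice. The Pparg-/-epi median of the sterol sum was 82.8% of the WT median.

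Markers of the cell types in the scrapings varied beside these sums. For each count of altered markers, the share altered over all genes was 10.3%. Of 12 sebocyte markers 8 were lower in Pparg-/-epi mice and 0 higher (8 and 0 with the likelihood ratio test, 6 and 0 with DESeq2, 6 and 0 with age as a covariate, 3 and 0 in females only). Awat2 and Acaa1b each lacked an adjusted p in 1 of the 22 alternatives, so the DESeq2 count may leave them untested. The sum of the 12 markers was 649, 1065, 139, 203, 575 and 146 CPM in WT mice 1 to 6 and 142, 183, 145, 95.0, 107 and 106 CPM in Pparg-/-epi mice 7 to 12. WT replicates 1, 2 and 5, the mice with high Acacb, Acss2 and Fasn, were the ones with a high sum of sebocyte markers. The other WT mice were near the Pparg-/-epi mice in this sum. Of the 12 markers 4 did not overlap between the groups, each lower in Pparg-/-epi mice. Fa2h, the most abundant marker in CPM, was 7.25, 103 and 209.9 CPM in WT and at most 1.90 CPM in Pparg-/-epi mice (log2 fold change -7.85, standard error 1.12, adjusted p = 0.000915). Awat1, Acaa1b and Pdzk1 were under 1 CPM in every Pparg-/-epi mouse, and Pdzk1 kept its call in 11 of the 22 alternatives, not without WT replicate 2 (-1.89, adjusted p = 0.0671). The part of sebocyte RNA in the values of the fatty acid arm was not tested.
Suprabasal keratinocyte markers, led by Krt10, summed to 30486, 10419, 31477, 24871, 31487 and 27476 CPM in WT and to 32114, 18770.5, 25699.9, 38032, 34382 and 30187 CPM in Pparg-/-epi mice. WT replicate 2 was lowest in this sum as in that of the sterol arm, and Pparg-/-epi replicates 8 and 9 were the next lowest in the sterol sum and among the 4 lowest in this one. Of the 5 suprabasal markers 1 was altered, Ivl, which was higher, and Krt1 (1.02, adjusted p = 0.101) was called higher in 4 of the 22 alternatives, including DESeq2 and the fit without WT replicate 2. The part of differentiated keratinocyte RNA in the sterol arm's values was not tested.

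**Figure D5:**
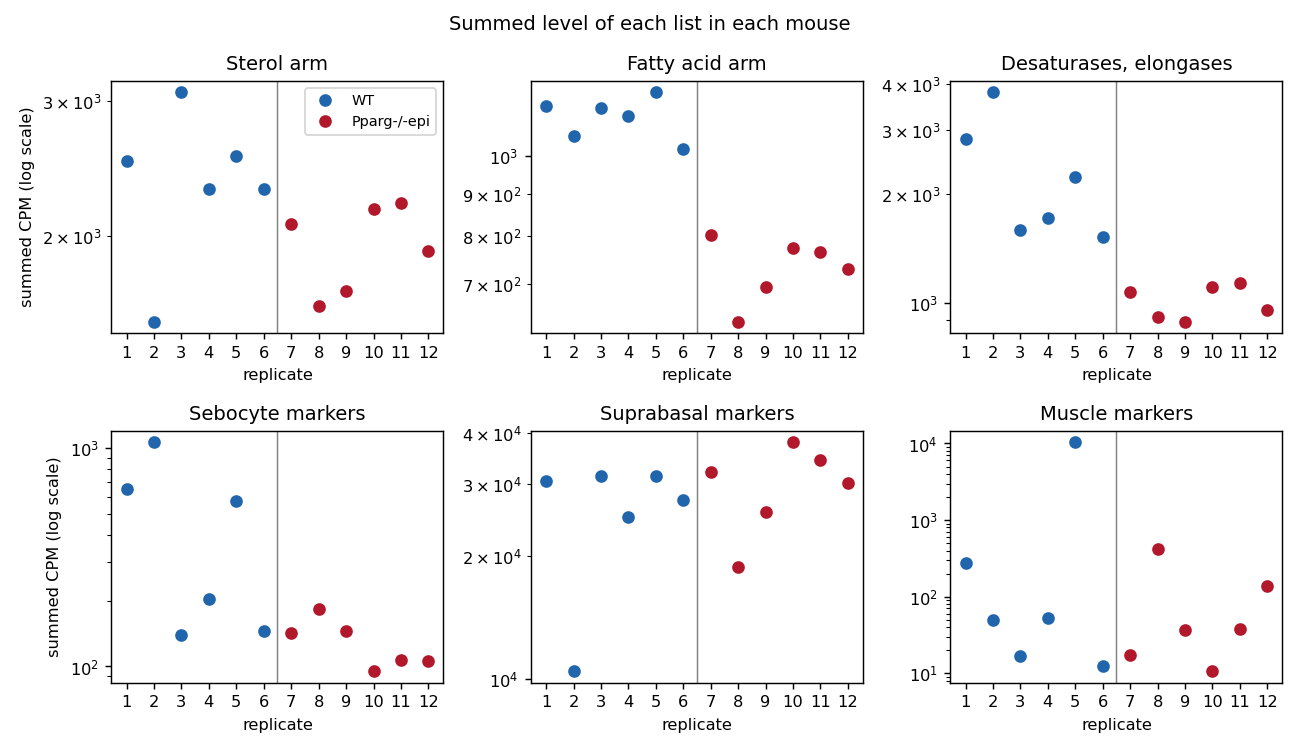
Summed CPM of 6 gene lists in each mouse (log axis, WT replicates 1 to 6 left of the line and Pparg-/-epi replicates 7 to 12 right of it). The fatty acid arm is at 802 CPM or less in every Pparg-/-epi mouse and at 1018 CPM or more in every WT mouse, and the sebocyte markers are high in WT replicates 1, 2 and 5.

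Other tissues were uneven between single mice. Muscle markers, led by Myh4, were not altered in any of 8, and their sum was 10394 CPM in WT replicate 5, 277 CPM in WT replicate 1 and 12.3 to 52.6 CPM in the other WT mice, against 10.6 to 423 CPM in Pparg-/-epi mice. Of 12 adipocyte markers 1 was altered, near the 10.3% altered over all genes. This was Adrb3, which was lower and kept its call in 14 of the 22 alternatives. The adipocyte marker sum, led by Car3, was 743 CPM in WT replicate 5 and 485 CPM in WT replicate 2. It was at most 95.6 CPM in the other WT mice and 67.0 to 320.1 CPM in Pparg-/-epi mice. Fibroblast markers (0 of 6 altered, led by Col1a1) summed to 34533 CPM in WT replicate 1 and to between 1014 and 10471 CPM in the other WT mice, against 5324 to 11169 CPM in Pparg-/-epi mice. The hair matrix list (0 of 15 altered, led by Krt71) was highest at 2941 CPM in Pparg-/-epi replicate 8 and 1106 CPM in WT replicate 2. These counts of 0 are from the quasi-likelihood test. At an unadjusted p under 0.05 there were 5 lower muscle markers, 1 higher hair matrix marker and 0 fibroblast markers. Over all genes 15.4% were lower and 14.0% higher at that level. The likelihood ratio test called 2 muscle markers lower (Mylpf and Tnni2), and DESeq2 called 0 in these 3 lists. Each of the 8 muscle markers lacked an adjusted p in 1 of the 22 alternatives. The DESeq2 count of 0 may therefore rest on muscle markers that were not tested. Without WT replicate 2 the quasi-likelihood test called Krt72 of the hair matrix list higher (3.61).
Of 8 cycling markers 5 were higher, with Mki67 at 54.8 to 195 CPM in WT and 241 to 465.8 CPM in Pparg-/-epi mice. Among 6 basal keratinocyte markers Krt14 was higher (log2 fold change 0.98) and Krt15 lower (-1.74), and among 7 Langerhans cell and macrophage markers Epcam was higher (1.04). The calls of the 5 cycling markers, of Krt14 and of Krt15 were lost without the WT mice named 29-226 (Mki67 0.93, adjusted p = 0.142; Krt14 0.82, adjusted p = 0.161; Krt15 -1.31, adjusted p = 0.0816), and in females only 3 cycling markers were altered. Their part in the members' values was not tested.

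Other lists of lipid metabolism genes were read beside the members. Of 9 desaturases and elongases 4 were lower and 0 higher. Scd1 was 502, 821 and 1812 CPM in WT and 186, 223 and 295 CPM in Pparg-/-epi mice, for a log2 fold change of -2.06 (SE 0.30, adjusted p = 0.000985). Scd3 (-7.68), Elovl5 (-1.97) and Elovl6 (-1.57) fell as well, and the summed list did not overlap between the groups. The sum was 2822, 3801 and 2220.3 CPM in WT replicates 1, 2 and 5, the mice with high sebocyte markers, and 1524 to 1715 CPM in the other WT mice, and the part of sebocyte RNA in it was not tested.
Of 9 further genes of SREBP processing and turnover 1 was altered, near the 10.3% altered over all genes. This was Tmem97, which was lower (-0.61, adjusted p = 0.0250) and kept its call in 11 of the 22 alternatives. Of 17 genes of sterol transport, storage and oxysterol metabolism 3 were altered. Soat1, which esterifies cholesterol, was lower (-1.85, adjusted p = 0.0163), and the oxysterol enzymes Cyp27a1 (0.84, adjusted p = 0.0108) and Cyp7b1 (1.86, adjusted p = 0.0339) were higher. Over the 22 alternatives Soat1 kept its call in 21, Cyp27a1 in 20 and Cyp7b1 in 12. Soat1 was highest in WT replicates 1, 2 and 5, as Acacb was. Scarb1 (1.89) and Tspo (0.64) were called higher as well when WT replicate 2 was left out, Scarb1 in 1 and Tspo in 5 of the 22 alternatives. In the quasi-likelihood test 0 of 11 prenyl branch genes, 0 of 3 cholesterol sulfation genes and 0 of 23 partners of lipogenesis were altered. In the same order 3, 0 and 14 had an unadjusted p under 0.05. Over all genes 14.0% were higher and 15.4% lower at that level. In that test 5 of the 23 partners passed the adjusted p but not the size threshold, against 743 of all 14533 genes. The partners summed to 1933 to 2240 CPM in WT and to 1586 to 1920 CPM in Pparg-/-epi mice, without overlap. Without WT replicate 2 the same test called Coq2 (-0.63) of the prenyl branch and Dgat2 (-0.72) and Mlycd (-0.61) of the partners lower, and Acsl4 (1.70) of the partners higher; of these Coq2 was called in 3 of the 22 alternatives and the others in 1. The likelihood ratio test called 0 of these lists with all mice, and DESeq2 called 1, Prkaa2, which was lower.

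The genotype effect did not differ between the sexes in any member at an adjusted p under 0.05 (edgeR's quasi-likelihood test of the interaction, lowest adjusted p = 0.895, for Hsd17b7), and 0 of all 14533 genes passed. At an unadjusted p under 0.05 there were 3 members and 741 genes. Among females alone, 3 WT against 4 Pparg-/-epi mice, Ebp was the altered member (0.68, adjusted p = 0.0417) and no member was altered downward. Of all 14533 genes 294 were altered and higher and 357 were altered and lower in this setting.

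These values have limits. RNA levels were measured, and the amounts of protein, of cut SREBP and of lipid were not analysed here. Each group has 6 mice, the scrapings held uneven amounts of sebaceous, muscle, fat and dermal RNA, and 4 WT mice share the name start 29-226, which no Pparg-/-epi mouse has. Transcripts of other genes share part of the sequence of Acat2, Acaca, Idi1 and Me1. Their counts are therefore less certain than those of Msmo1, Fasn and Acacb. Fdps shares exon bases with Gm43738 in the GENCODE annotation, and whether this affected its counts was not tested. Each mouse was sampled once, and early and late effects of the deletion cannot be told apart.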

How the data were processed

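The authors aligned paired-end reads to mm10 with STAR 2.5.2b, removed reads of low quality or with several mapping places, and counted them with featureCounts (Subread 1.5.1). The deposited gene counts of 14533 genes were used; the table also holds 2800 blank lines, which were left out. Columns were matched to mice by name, and those of Pparg-/-epi replicates 11 and 12 through the list of sequencing runs in the study's supplement. For some mice the label ages, used here also for the age covariate, differ from those in the supplement. Counts were tested with edgeR 4.0.16 (R 4.3.3), quasi-likelihood, TMM factors and Benjamini-Hochberg adjustment over all genes. Alternatives were the likelihood ratio test, DESeq2 1.42.0, total-count and upper quartile factors, a mean of at least 10 counts, sex, RIN or age as covariate, females only, WT mice named 29-226 left out, and each mouse left out. The members and lists were chosen with earlier results of these data known. Outside the 32 members, genes were named where altered (up to 4 a list), most abundant in a marker list, near 0, or needed to state an exception. Shared 75-base stretches and exon overlaps were counted in the GENCODE annotation; whether counting used the strand is not given in the sources used here.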

Additional observations from a re-analysis of the deposited data

Results flagged for a closer look

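A rule for a single value far from the rest of its group (Dixon, 6 samples) was applied to the 32 members and the 2 arm sums in each of the 2 groups and picked 3 of 68 sets of values, or 4.41%, where about 1 in 20 is what chance gives. Insig2 stood at 199.9 CPM in WT replicate 2, against 46.99 to 81.3 CPM in the other WT mice. Acaca stood at 106 CPM in WT replicate 1, against 57.2 to 73.5 CPM. Thrsp stood at 6.06 CPM in Pparg-/-epi replicate 11, against 0.665 to 2.66 CPM.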

How the results depend on the processing

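Over the 22 alternatives the 32 members gave 704 values, of which 634 kept both sign and call, 14 gained a call, 27 lost a call and 29 changed sign, whatever the change in size; no gene that changed sign was altered with all mice. The number of altered genes was 1493 with all mice, 651 in females only, 389 without the WT mice named 29-226, and 1116 to 2249 when 1 mouse was left out. In the sterol arm it was 1 with all mice, 2 with DESeq2, 2 with total counts, 0 without the WT mice named 29-226 and 1 to 4 with 1 mouse left out; in the fatty acid arm it was 4 with all mice, 0 in females only and 2 to 5 with 1 mouse left out. Without the WT mice named 29-226 the log2 fold change changed sign for Insig2 (-0.14), Pmvk (0.0758), Idi1 (-0.12), Fdft1 (0.18), Sc5d (0.13), Dhcr7 (0.12), Stard4 (-0.0361), Acaca (-0.17) and Thrsp (-0.0786). In females only it did so for Acat2 (0.31), Nsdhl (0.0401) and Hsd17b7 (0.33). It also did with sex as covariate for Acat2 (0.0190), with RIN for Idi1 (-0.12) and Acaca (-0.0182), and with upper quartile factors for Cyp51 (-0.0083). With 1 mouse left out it did for Acat2 (-0.19 to 0.0188, above 0 without WT 1), Idi1 (-0.0853 to 0.14, below 0 without Pparg-/-epi 7 or 8), Sqle (-0.0937 to 0.13, below 0 without WT 2 or Pparg-/-epi 7, 10 or 11), Cyp51 (-0.12 to 0.0830, below 0 without WT 2, 4 or 6 or Pparg-/-epi 10 or 11) and Thrsp (-0.21 to 0.96, below 0 without Pparg-/-epi 11).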
